A study of Homo sapiens with 10 samples.

Results

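CUT&RUN peak lists of BRD9 in G401 cells that lacked SMARCB1 were set against the peak lists of SMARCB1 in G401 cells in which SMARCB1 had been switched on. The aim was to see which of the later SMARCB1 sites BRD9 already held. Overlapping peaks (1 bp or more) of 3 BRD9 lists and 2 SMARCB1 lists, on chromosomes 1 to 22 and X, were merged into 229650 regions. A region was called BRD9 only when 3 of 3 BRD9 lists and 0 of 2 SMARCB1 lists had a peak in it, SMARCB1 only when 0 of 3 and 2 of 2 had one, and both when 3 of 3 and 2 of 2 had one. The classes held 3983 BRD9-only regions (1.73% of all merged regions), 74058 SMARCB1-only regions (32.2%) and 3925 regions of both (1.71%). The other 147684 regions (64.3%) were called by part of the lists of a protein.

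G401 is a rhabdoid tumour line, and every sample carried the genotype SMARCB1(-/-). Doxycycline induced green fluorescent protein (GFP) in the BRD9 samples used here, labelled BRD9_GFP (3 replicates, a rabbit polyclonal antibody to BRD9). It induced SMARCB1 in the samples labelled SMARCB1_SB1 (2 replicates, a rabbit monoclonal antibody to SMARCB1). These were 5 of the 10 samples of the series. The labels give no time, so BRD9 before induction means BRD9 in separate samples without SMARCB1, not an earlier time point of the same cells. Nothing in the labels says whether replicates were separate cultures, so spreads and p-values describe these lists only. CUT&RUN uses an antibody to bring a nuclease to its target, which cuts out the bound DNA for sequencing.

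SWI/SNF complexes are ATP-driven machines that move or evict nucleosomes and open chromatin at enhancers and promoters. SMARCB1 is a core subunit of the canonical BAF and PBAF forms, and its loss is the defining lesion of rhabdoid tumours. BRD9 is a bromodomain protein, a reader of acetylated lysine, that belongs to the non-canonical BAF form. That form contains no SMARCB1 and remains in cells that have lost it.

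The lists differed in depth before any comparison of sites. The BRD9 libraries held 10.2 to 12.1 M reads and the SMARCB1 libraries 59.7 and 64.2 M. A median peak held 17 or 18 reads in the BRD9 lists and 55 and 53 in the SMARCB1 lists. BRD9_GFP replicates 1, 2 and 3 had 43698, 33112 and 36981 peaks over 33.2, 20.8 and 29.5 Mb. SMARCB1_SB1 replicates 1 and 2 had 133127 and 161500 peaks over 149 and 195 Mb. Every SMARCB1 list was larger than every BRD9 list. The log2 ratio of mean peak numbers was 1.96 and that of covered length 2.63, each with p = 0.1 in a two-sided exact permutation test of 3 lists against 2, the smallest p this design allows. Antibody, induction, depth and control library all changed between the groups and cannot be told apart. The BRD9 lists shared one control library of 23.1 M reads and the SMARCB1 lists another of 49.6 M, so lists of one protein are not fully independent.

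Most later SMARCB1 sites had no BRD9 peak in the cells lacking SMARCB1. Of the 87304 merged regions called in both SMARCB1 lists (38% of all merged regions), 84.8% held a peak of 0 BRD9 lists. At least 1 BRD9 list had a peak in 13246 of them (15.2%), and all 3 did in 3925 (4.5%). Among all merged regions, all 3 BRD9 lists had a peak in 3.62%, close to that last share. BRD9 peaks themselves helped to make the merged regions, so this is not a chance level. The shares of all merged regions with 0 BRD9 lists or with at least 1 are not given here. Taken singly, BRD9_GFP replicate 1 had a peak in 7.22% of the SMARCB1 regions, replicate 2 in 11.5% and replicate 3 in 8.84%, a mean of 9.18 ± 2.15% (SD, n = 3). The lists did not follow their peak numbers: replicate 2 had the fewest peaks and reached the most SMARCB1 regions. It also supplied most of the regions held by a single list. Of 6377 SMARCB1 regions with a peak of exactly 1 BRD9 list, 59.1% were held by replicate 2, 25.3% by replicate 3 and 15.5% by replicate 1. The SMARCB1 lists set the other side of the count. Regions of SMARCB1 alone numbered 144772 when SMARCB1_SB1 replicate 1 was left out and 117345 without replicate 2, and the mean share with BRD9 was then 5.76% and 6.60%. With the same number of top-scoring peaks taken from all 5 lists, the mean share was 17.7%.

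Seen from BRD9, close to equal numbers of regions went each way. Of 8323 regions called in all 3 BRD9 lists (3.62% of all merged regions), 47.2% were called in both SMARCB1 lists after induction, 4.99% in 1 of 2 and 47.9% in neither. Few of these 8323 regions therefore fell on the border set by the SMARCB1 lists. The border set by the BRD9 lists held more. Regions with 1 or 2 of 3 BRD9 lists numbered 47644 with 0 SMARCB1 lists (20.7% of all merged regions). With 2 of 2 SMARCB1 lists they numbered 9321 (4.06%). By single peaks, 22.1% of replicate 1, 45.4% of replicate 2 and 31.6% of replicate 3 lay in a region called in both SMARCB1 lists (33.1 ± 11.7%, SD, n = 3). Replicate 2 stood highest by this measure too. The count of BRD9-only regions rested on it: without BRD9_GFP replicate 2 they numbered 8735, while regions of both numbered between 4097 and 5489 as each of the 5 lists was left out in turn.

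SMARCB1 sites that BRD9 already held were broader at the median, and the share held went up with width. In the widest quartile of SMARCB1 regions, 70.5% still had a peak of 0 BRD9 lists. The span of the SMARCB1 peaks had a median of 1150 bp in regions with 0 BRD9 lists, 1600 bp with 1, 2000 bp with 2 and 3761 bp with 3. Among SMARCB1 regions under 0.5 kb, 2.48 ± 1.22% held a BRD9 peak (SD over the 3 BRD9 lists, as below). The share was 4.03 ± 1.64% from 0.5 to 1 kb, 6.99 ± 2.04% from 1 to 2 kb and 13.9 ± 2.92% from 2 to 5 kb. It was 29.7 ± 4.30% from 5 to 10 kb, 50.9 ± 3.97% from 10 to 20 kb and 69.9 ± 3.59% from 20 to 50 kb. In the 41 SMARCB1 regions of 50 kb or more it was 84.6 ± 5.63%, and 32 of these held peaks of all 3 BRD9 lists. The order held in each list. Spans were taken after merging all 5 lists, so a BRD9 peak that joined separate SMARCB1 peaks also widened the span. Width is thus not fully independent of the BRD9 call, and how much this adds was not tested. The widest quartile of SMARCB1 regions exceeded the narrowest by 17.0 ± 2.00 percentage points (SD, n = 3), higher in 3 of 3 lists (two-sided exact sign-flip permutation test over lists, p = 0.25, the smallest p that 3 lists allow).

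A broader region offers more length in which a BRD9 peak can fall, so BRD9 peaks were also counted per length. Each BRD9 peak merged with a region was counted whole, even where it reached past the SMARCB1 peaks. This raises the count per Mb most in narrow regions, so it is not a full correction for length. Up to 5 kb the mean number of BRD9 peaks per Mb of SMARCB1 region lay between 53.2 and 60.3, and the lists ran different ways. Over the 4 width classes up to 5 kb, replicate 3 went up from 42.3 through 47.0 and 50.7 to 56.6, while replicate 2 went from 93.2 through 81.3 and 69.7 to 73.4. In regions of 5 to 10 kb it was 77.5 ± 12.7, in those of 10 to 20 kb 105 ± 15.1 and in those of 20 to 50 kb 123 ± 17.3 (SD, n = 3). It was 109 ± 16.0 in regions of 50 kb or more. The summed length of these BRD9 peaks was also set against the length of the SMARCB1 regions. It includes bases outside the SMARCB1 regions, so it is not the part covered. It came to 3.26 ± 0.830% under 0.5 kb and 3.25 ± 0.567% at 1 to 2 kb. At 2 to 5 kb it was 4.47 ± 0.616%, higher than at 1 to 2 kb in 3 of 3 lists. It was 14.6 ± 2.43% at 20 to 50 kb. From 5 kb upwards, BRD9 peaks per Mb exceeded those at 2 to 5 kb in every list.

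**Figure D1:**
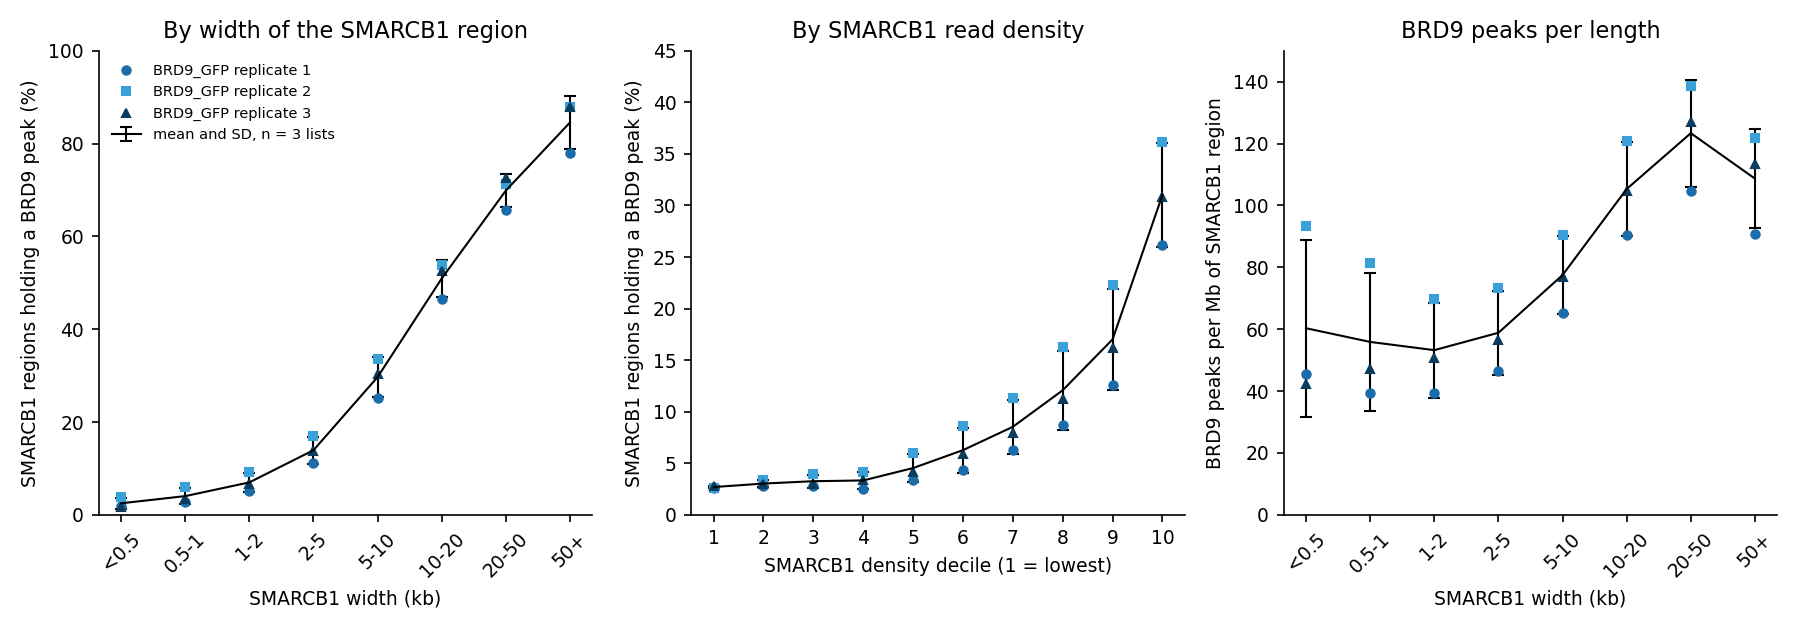
Share of SMARCB1 regions that held a BRD9 peak in cells lacking SMARCB1, by width of the SMARCB1 region (left, kb) and by decile of SMARCB1 read density (middle), and BRD9 peaks per Mb of SMARCB1 region by width (right). Points are the 3 BRD9_GFP lists and lines with bars are their mean and SD: the share goes from 2.48% to 84.6% with width and from 2.69% to 31.0% with density, while mean peaks per Mb lie between 53.2 and 60.3 below 5 kb. BRD9 peaks that reached past a region were counted whole, which raises peaks per Mb most in narrow regions.

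SMARCB1 sites that BRD9 already held were also denser at the median. Read density is given in RPKM, the reads of a peak per kilobase and per M reads sequenced. In SMARCB1_SB1 replicate 1 the median SMARCB1 density was 1.42, 1.56, 1.65 and 1.87 RPKM in regions with 0, 1, 2 and 3 BRD9 lists. In replicate 2 it was 1.45, 1.65, 1.75 and 2.05 RPKM. Both lists thus had the same order. The control density of those peaks also differed, at 0.440, 0.547, 0.584 and 0.583 RPKM for replicate 1. As a result the median fold of SMARCB1 over its control had no such order: 3.09, 2.72, 2.72 and 3.09 in replicate 1 and 3.39, 3.06, 3.06 and 3.52 in replicate 2.

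Between the classes, SMARCB1 density in regions of both exceeded that in SMARCB1-only regions by 0.40 and 0.50 on the log2 scale in the 2 lists, a mean of 0.45 (two-sided exact sign-flip permutation test, p = 0.5, the smallest p that 2 lists allow). The control density at the same peaks differed by 0.40 ± 0.012 (SD, n = 2), or 1.32-fold. Density over control differed by 0.029 ± 0.040, which was within the spread of the 2 lists. Whether the control level takes part in the difference was not tested.

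The decile of highest SMARCB1 density held BRD9 in 31.0 ± 5.02% of regions and the lowest in 2.69 ± 0.120% (SD, n = 3). The top quartile by density exceeded the bottom quartile by 18.9 ± 4.54 percentage points in 3 of 3 lists (two-sided exact sign-flip permutation test, p = 0.25, the smallest possible). Dense SMARCB1 regions were also wide, with a median span of 3450 bp in the top decile and 1150 bp in the lowest. Among regions of 500 to 2000 bp only, the share went from 2.45 ± 0.181% to 16.9 ± 6.03% over the deciles, and the difference between the outer quartiles was 9.47 points. At a similar width the order by density was therefore kept, at a smaller size.

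For BRD9 itself, read density separated the classes little, and the control library separated them more. In regions of both, the median BRD9 density was 3.67, 4.60 and 3.84 RPKM in replicates 1, 2 and 3. In BRD9-only regions it was 3.53, 3.08 and 3.56 RPKM. All 3 lists were higher in regions of both, by 0.06, 0.58 and 0.11 on the log2 scale, a mean of 0.25 ± 0.29 (SD, n = 3; two-sided exact sign-flip permutation test, p = 0.25, the smallest possible). Without BRD9_GFP replicate 2 the mean was 0.13.

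The control library had a median of 0.928, 0.984 and 0.905 RPKM at the BRD9 peaks in regions of both. In BRD9-only regions it had 0.288, 0.332 and 0.301 RPKM. The ranges did not meet. The difference was 3.06-fold, or 1.61 ± 0.063 on the log2 scale (SD, n = 3; exact sign-flip permutation test, two-sided, p = 0.25, the smallest possible). BRD9 density over control therefore had the opposite order, lower in regions of both by a log2 difference of -1.17 ± 0.38 in 3 of 3 lists. The direction of the BRD9 difference depends on whether the control is divided out. At a mean control density of 1 RPKM or more lay 1804 of the regions of both (46.0%) and 441 of the BRD9-only regions (11.1%). The control of the SMARCB1 lists at BRD9-only regions was not measured here, because a list reports reads for its peaks alone.

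**Figure D2:**
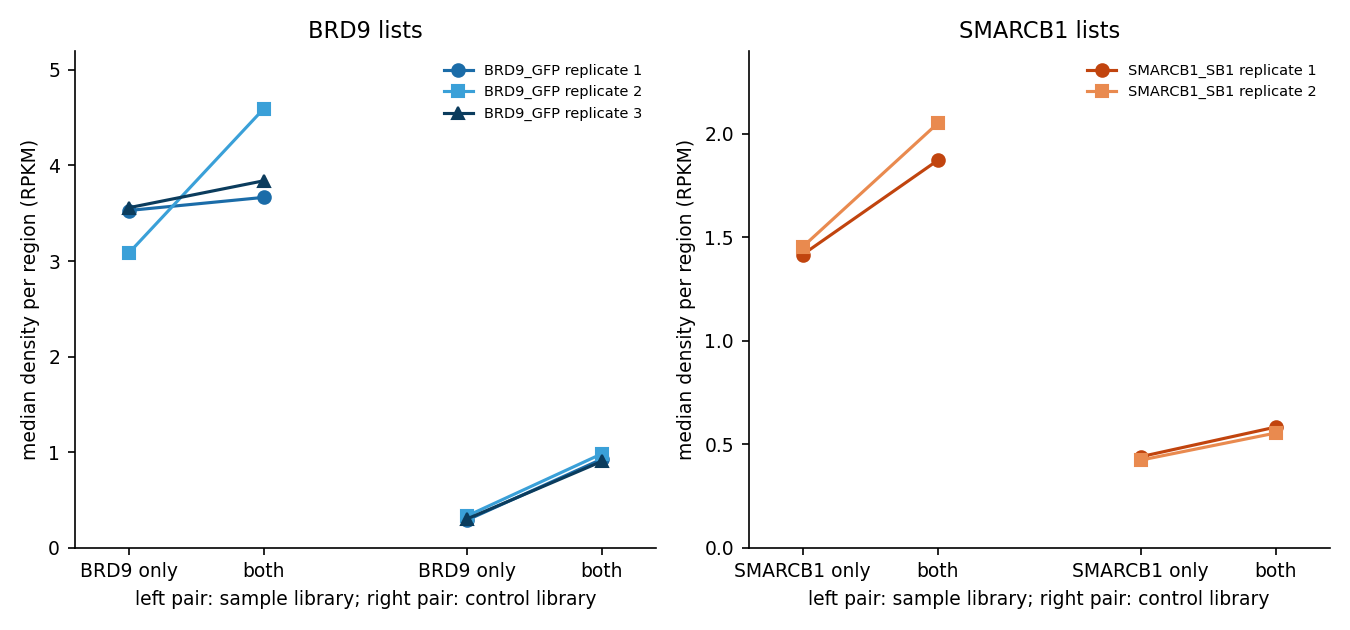
Median read density per region (RPKM) of the sample library (left pair in each panel) and of the control library over the same peaks (right pair), for the 3 BRD9_GFP lists in BRD9-only regions and regions of both, and for the 2 SMARCB1_SB1 lists in SMARCB1-only regions and regions of both. Each line is 1 list; every line goes up towards regions of both, most steeply, at 3.06-fold, for the control of the BRD9 lists.

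All BRD9 peaks were then examined, whether or not other lists shared them. Each list was divided into quartiles by the authors' score, by BRD9 density and by control density. The mean share of peaks at a later SMARCB1 region went from 19.4 ± 5.47% in the lowest quartile by score to 49.3 ± 18.8% in the highest. By BRD9 density it went from 16.4 ± 4.52% to 57.4 ± 19.001%. By control density it went from 5.17 ± 3.72% through 16.0 ± 11.6% and 39.1 ± 21.0% to 71.9 ± 10.7% (SD, n = 3 for each). The highest quartile exceeded the lowest in 3 of 3 lists by each measure, by 29.9 ± 13.9, 40.9 ± 19.2 and 66.7 ± 7.16 percentage points (two-sided exact sign-flip permutation tests over the 3 lists, p = 0.25 each, the smallest possible). These are 3 tests of related measures and were not adjusted, since the design allows no smaller p.

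BRD9 density and control density were then crossed. Among BRD9 peaks in the lowest quartile by both, 3.43 ± 1.67% lay at a later SMARCB1 region. Among those lowest by BRD9 density and highest by control density, the share was 56.8 ± 8.78%. Among those highest by BRD9 density and lowest by control density, the lists were far apart, at 3.41%, 34.5% and 5.42%. Replicate 2 set that value, from 252 peaks, against 1496 and 1107 in the other lists. Peaks in the highest quartile by both lay at SMARCB1 regions in 72.2%, 83.4% and 77.4% of cases. Inside the highest quartile of control density, the share also went up with BRD9 density in every list, from 46.9% to 72.2%, from 59.8% to 83.4% and from 63.7% to 77.4% in replicates 1, 2 and 3. Inside the third quartile of control density it went from 16.8% to 27.5%, from 35.6% to 79.0% and from 34.7% to 45.1%. The share thus moved with both measures. What the control library of the BRD9 lists was is not given in the sources used here, so what its level stands for was not tested.

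**Figure D3:**
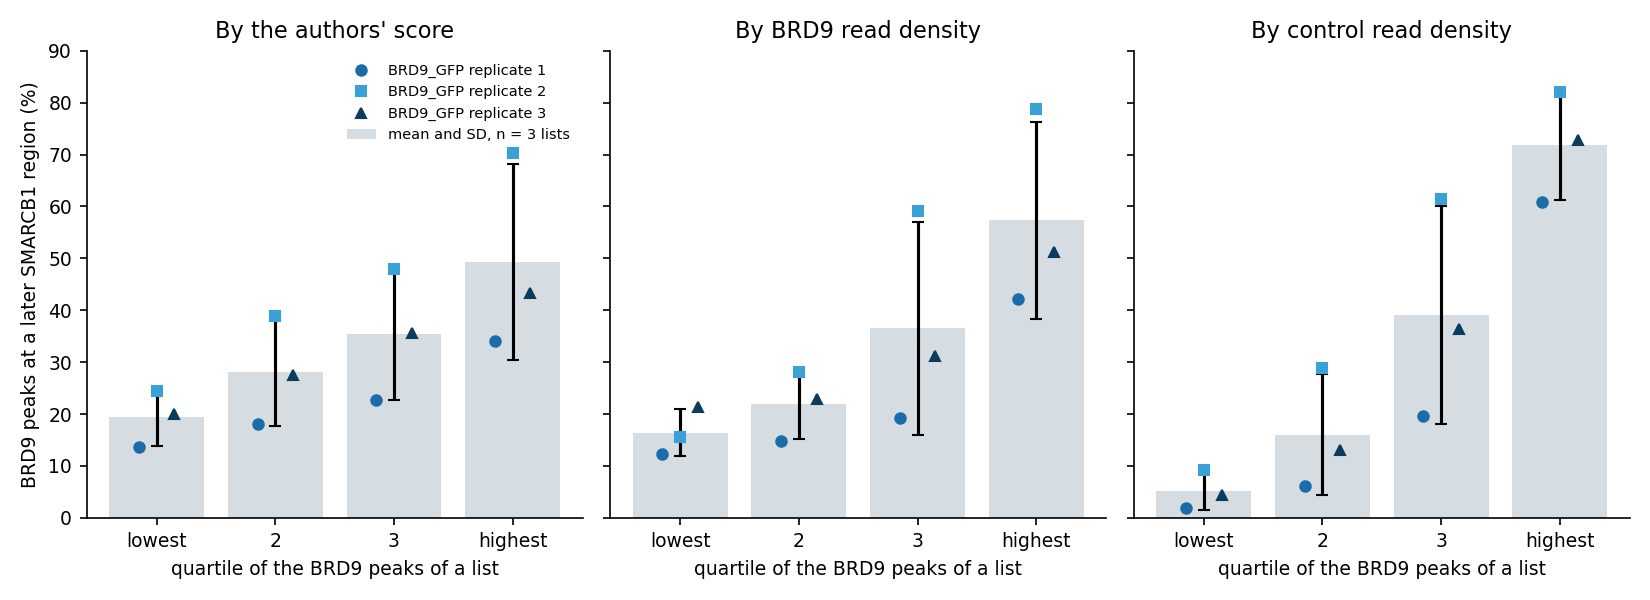
Share of BRD9 peaks that lay in a region called in both SMARCB1 lists (%), by quartile of each BRD9_GFP list ordered by the authors' score, by BRD9 density and by control density. Bars and whiskers are the mean and SD of 3 lists and points are the lists; the steepest order is by control density, from 5.17% to 71.9%.

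Regions of both were wide. Their median width was 4010 bp (quartiles 2027 and 7800), of which the SMARCB1 peaks alone spanned a median of 3761 bp, against 1734 bp for BRD9-only and 1150 bp for SMARCB1-only regions. Regions of 10 kb or more made up 19.1% of both, 2.18% of BRD9 only and 0.721% of SMARCB1 only. Widths were also compared as the widest peak of a list in each region, a maximum that is taken over more peaks in regions of both (1.83 peaks per region against 1.19 in SMARCB1-only regions for SMARCB1_SB1 replicate 1). The widest SMARCB1 peak of a region was broader in regions of both by 1.62 and 1.68 on the log2 scale in the 2 lists (two-sided exact sign-flip permutation test, p = 0.5, the smallest possible). For BRD9 the lists differed in sign, at -0.51, 0.30 and 0.04 in replicates 1, 2 and 3 (mean -0.057 ± 0.41, SD, n = 3; two-sided exact sign-flip permutation test, p = 1). The lists thus disagreed on whether BRD9 peaks were broader or narrower where SMARCB1 later bound.

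The share of a region of both that BRD9 covered was lower in wider regions. Every region of both holds a peak of each list by definition. A peak of a given width fills more of a narrow region, so this order is at least partly set by construction. How much of it is was not tested. BRD9 peaks took up 27.7%, 26.4% and 33.2% of the base pairs of all these regions in the 3 lists, and SMARCB1 peaks 85.4% and 93.9%. In the 953 regions under 2 kb (24.3% of the class), BRD9 took up 50.3%, 50.1% and 55.5% and SMARCB1 65.2% and 82.0%. These regions, and the 1388 of 2 to 5 kb (35.4%), held a median of 1 BRD9 peak in each list. In the 245 regions of 20 kb or more (6.24%), BRD9 took up 19.95%, 18.2% and 25.03%, in a median of 5, 6 and 5 peaks. SMARCB1 took up 94.9% and 98.2% there. Only the wide regions thus had several separate BRD9 peaks inside a broad SMARCB1 domain.

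The strongest points of the proteins lay near each other in narrow regions and apart in wide ones. Apexes cannot lie farther apart than the width of their region, so the contrast of narrow with wide regions is partly set by the grouping. Pairs of one protein rose with width as well, so the pairs are compared at each width. The distance was taken between the apexes of the best-scoring peak of each list. In the 953 regions of both under 2 kb, its median was 110 to 114 bp between BRD9 lists, 134 to 145 bp between a BRD9 and a SMARCB1 list and 94 bp between the SMARCB1 lists. In the 748 regions of 10 kb or more, it was 326 to 368 bp between BRD9 lists and 404 bp between SMARCB1 lists, but 1426 to 2609 bp between the proteins. All 6 pairs of a BRD9 and a SMARCB1 list were farther apart than all 4 pairs of one protein at each width. Pairs of one protein also share a control library.

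**Figure D4:**
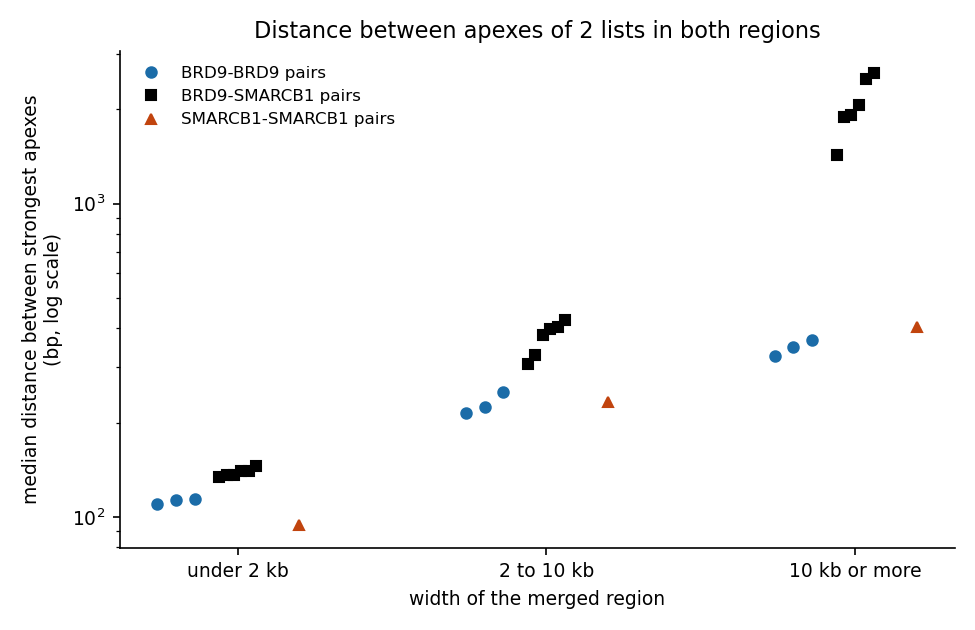
Median distance (bp, log scale) between the apexes of the best-scoring peaks of a pair of lists, in regions of both grouped by width. Each point is 1 pair of lists: BRD9 with BRD9 (3 pairs), BRD9 with SMARCB1 (6) and SMARCB1 with SMARCB1 (1); in regions of 10 kb or more the pairs across proteins lie at 1426 to 2609 bp and the others at 326 to 404 bp.

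Across the 3925 regions of both, BRD9 and SMARCB1 densities were correlated with Spearman coefficients of 0.377 to 0.483 over the 6 pairs of lists. This is a description over regions, which are not replicates and differ in width. The 3 BRD9 pairs had 0.641 to 0.643 and the SMARCB1 pair 0.916. With density divided by control, the coefficients between the proteins were -0.104 to -0.027.

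Chromosome 19 held far more BRD9 than the rest of the genome, with and without later SMARCB1. BRD9_GFP replicates 1, 2 and 3 had a peak in 25.3%, 38.0% and 29.9% of its 2242 SMARCB1 regions, against 6.74%, 10.8% and 8.29% elsewhere. The difference was 22.5 ± 4.40 percentage points (SD, n = 3) in 3 of 3 lists (two-sided exact sign-flip permutation test, p = 0.25, the smallest possible). On the other chromosomes the mean share lay between 6.30% (chromosome 18) and 11.1% (chromosome 17). All 3 BRD9 lists held 3.08% (chromosome 7) to 5.94% (chromosome 21) of the SMARCB1 regions of the other chromosomes. Chromosome 19 carried 426 regions of both (10.9% of that class) among its 2242 SMARCB1 regions, 728 BRD9-only regions (18.3%) and 1236 SMARCB1-only regions (1.67%). Chromosome 19 is the most gene-dense human chromosome and carries large clusters of zinc finger genes. Its regions of both were narrower than those elsewhere, with a median of 1862 bp against 4350 bp. Its BRD9-only regions had a control density of 0.183 RPKM, below the 0.358 RPKM of BRD9-only regions elsewhere.

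A second large set of BRD9-only regions lay beside the longest stretch without any peak on a chromosome. On most chromosomes that stretch spans the centromere, which the build leaves as a gap. On 13, 14, 15, 22 and X it lay elsewhere, since no peak was called on the short arm of the first 4 of these. Within 1 Mb of such a stretch lay 1183 BRD9-only regions (29.7%), 0.882% of SMARCB1-only regions, 1.25% of regions of both and 2.66% of all merged regions. Chromosome 7 had 176 of them, chromosome 8 had 113 and chromosome 1 had 99. Their median BRD9 density was 3.91, 3.20 and 3.77 RPKM in replicates 1, 2 and 3, and their median width 2250 bp. Of the BRD9-only regions, 2142 (53.8%) were neither there nor on chromosome 19. Where the stretch lay away from the centromere, regions near the centromere were left in this remainder. It thus includes the 58 BRD9-only regions of chromosome X between 61 and 62 Mb.

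**Figure D5:**
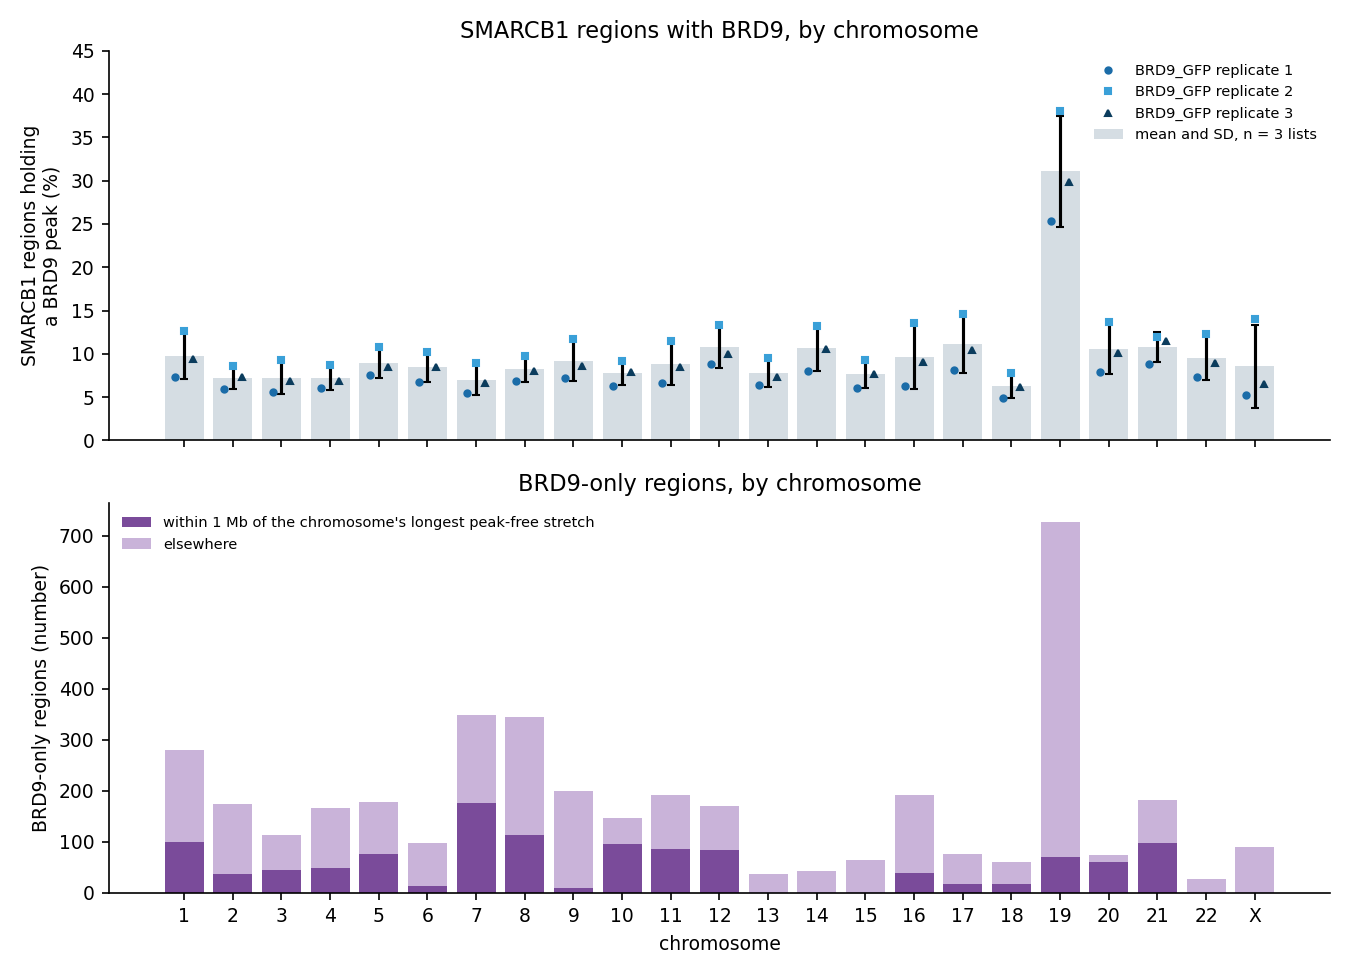
Share of the SMARCB1 regions of each chromosome that held a BRD9 peak (top, %; bars and whiskers are the mean and SD of the 3 BRD9_GFP lists, points are the lists) and number of BRD9-only regions per chromosome (bottom), with those within 1 Mb of the chromosome's longest peak-free stretch in dark. Chromosome 19 stands at 31.1% against 6.30% to 11.1% elsewhere and has 728 BRD9-only regions, of which 70 lie within 1 Mb of that stretch.

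BRD9-only regions mostly lay well away from SMARCB1. The distance to the nearest SMARCB1 peak of either list had a median of 40.8 kb (quartiles 8.60 and 237 kb), and 4.97% lay within 1 kb of one. The median was 248 kb beside the peak-free stretches, 18.2 kb on chromosome 19 and 20.5 kb for the remainder. SMARCB1-only regions lay at a median of 28.1 kb from the nearest BRD9 peak of any list, and 3.94% within 1 kb. The classes were thus not mainly near misses of peak edges.

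The classes also gathered in different windows of 1 Mb. The fullest window of BRD9-only regions was on chromosome 7 between 61 and 62 Mb in hg19, with 130 of them and 0 SMARCB1 regions, beside the peak-free stretch. The next was on chromosome 19 between 37 and 38 Mb, with 94 BRD9-only regions, and its 6 SMARCB1 regions were all regions of both. The 20 fullest windows held 29.6% of BRD9-only regions and 11.01% of regions of both. Regions of both were most frequent on chromosome 19 between 43 and 44 Mb, where they made up 40 of 88 SMARCB1 regions and 51.9 ± 2.62% of SMARCB1 regions held BRD9 (SD, n = 3). Next came chromosome 6 between 26 and 27 Mb (29 of 69) and between 27 and 28 Mb (26 of 75). The opposite case stood on chromosome 17 between 28 and 29 Mb, where 0 of 129 SMARCB1 regions were regions of both, and on chromosome 7 between 83 and 84 Mb, with 1 of 136.

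Single regions show the range of the both class. Ranked by the authors' score, the leading pair lay on chromosome 22, from 18717276 to 18719376 and from 18720776 to 18721820. The first had 19.9, 21.4 and 20.7 RPKM of BRD9 and 7.76 and 7.72 RPKM of SMARCB1. Its control densities were also high, at a mean of 8.05 RPKM for the BRD9 lists and 4.69 RPKM for the SMARCB1 lists. The second had 21.5 ± 1.37 RPKM of BRD9 (SD, n = 3) and 9.28 ± 1.24 of SMARCB1 (SD, n = 2), with control means of 8.30 and 6.02. Only 7 regions of both had a BRD9 control density of 5 RPKM or more, so this pair was not typical of the class.

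The next regions were broad. On chromosome 15 from 35592376 to 35606976, BRD9 had 9.32, 13.8 and 7.71 RPKM in 3 or 4 peaks per list, and SMARCB1 had 3.79 and 4.61 RPKM in a single peak per list. Control means were 1.43 and 0.483 RPKM. On chromosome 8, the regions from 127454348 to 127505898 and from 58861406 to 58914605 had 6.92 ± 1.55 and 9.47 ± 1.59 RPKM of BRD9 (SD, n = 3), in 12 to 17 peaks per list, and 4.10 ± 0.423 and 4.18 ± 0.348 of SMARCB1 (SD, n = 2). A region at the middle of the class by density was on chromosome 1 from 153937726 to 153940598, with 3.87, 4.25 and 4.77 RPKM of BRD9 from 16, 22 and 28 reads and 1.88 and 1.66 RPKM of SMARCB1.

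The widest region of both was on chromosome 7 from 80347976 to 80541224, 193248 bp. SMARCB1 peaks covered 191 and 193 kb of it, while 11, 13 and 12 BRD9 peaks covered 10.7, 10.98 and 11.8 kb. In the region of 115175 bp on chromosome 1 from 103618976 to 103734151, 35, 39 and 40 BRD9 peaks covered 54.3, 35.4 and 58.0 kb. SMARCB1 peaks covered 107 and 111 kb there, so the narrower of these domains held more BRD9 in every list. The others of the widest 5 were on chromosome 2 from 58710176 to 58854226, chromosome 9 from 3891576 to 4002526 and chromosome 10 from 34823201 to 34919801. In these, SMARCB1 density was 3.46 to 3.72 RPKM, and BRD9 took up 3.83 to 37.6 kb per list.

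The leading SMARCB1-only regions included broad domains as well. On chromosome 7 from 84151451 to 84180376, SMARCB1 had 4.22 and 5.22 RPKM over 28925 bp, and from 84623501 to 84657301 it had 4.06 and 4.97 RPKM over 33800 bp. The control had 0.338 and 0.307 RPKM there, and 0 BRD9 lists had a peak. These were first and second of their class by density as well. Others by rank were on chromosome 8 from 67899251 to 67905651, chromosome 2 from 150131751 to 150139901 and chromosome 7 from 27635176 to 27652101, at 2.92 to 3.62 RPKM. Others by density were on chromosome 9 from 84432351 to 84445976 and chromosome 15 from 36659226 to 36668426, at 4.03 ± 0.561 and 3.92 ± 0.374 RPKM (SD, n = 2). A narrow one on chromosome 5 from 34188339 to 34188801 had 4.04 ± 0.148 RPKM with a control of 3.60. A region at the middle of the class, on chromosome 3 from 178897376 to 178900951, had 1.38 and 1.48 RPKM. High SMARCB1 density and great width also occurred without BRD9 peaks: of the 41 regions of 50 kb or more, 4 had 0 BRD9 lists.

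The leading BRD9-only regions all lay beside a peak-free stretch, with high control. They were on chromosome 8 from 43816026 to 43838927 (44.0 ± 3.33 RPKM of BRD9, control 7.11), chromosome 4 from 49133497 to 49140601 (24.7 ± 1.06, control 5.64) and from 49118077 to 49129634 (34.9 ± 2.91, control 7.36), chromosome 2 from 92305176 to 92311167 (67.4 ± 7.07, control 22.6) and chromosome 11 from 51578351 to 51579841 (32.2 ± 3.43, control 14.8; SD, n = 3 for each). Only 58 BRD9-only regions (1.46%) had a control of 5 RPKM or more. Leading regions with a control under 1 RPKM were therefore also named, a choice made after the values were seen. First among them was chromosome 8 from 1575376 to 1583601, with 9.82, 15.8 and 13.1 RPKM and a control of 0.325, at 60.3 kb from the nearest SMARCB1 peak. Next were 3 regions on chromosome X, from 61819068 to 61824333, from 61862664 to 61867326 and from 61814651 to 61816426, at 6.08 to 7.75 RPKM. The longest peak-free stretch of X did not span its centromere. These 3 lay in the window of X between 61 and 62 Mb, given above as an example of regions near the centromere. They are therefore not examples away from it. The last was on chromosome 2 from 133001316 to 133009734, at 7.17 ± 1.23 RPKM (SD, n = 3). A region at the middle of the class was on chromosome 16 from 81379410 to 81381883, with 3.01, 3.38 and 3.75 RPKM and a control of 0.368.

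Regions just outside the class of both, by the number of lists, looked as follows. With 2 of 3 BRD9 lists and both SMARCB1 lists there were 2944 regions, with median densities of 3.46 RPKM for BRD9 and 1.70 for SMARCB1 and a width of 2075 bp, against 4.04, 1.96 and 4010 bp in the class. With 3 of 3 BRD9 lists and 1 SMARCB1 list there were 415 regions, with 3.46 and 1.41 RPKM and 1602 bp. The median BRD9 control was 0.920 RPKM in the former and 0.414 RPKM in the latter.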

How the data were processed

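Each deposited file is the peak list of 1 sample. Per the file headers it gives, for each peak, raw read counts for the sample and for its control, each repeated as RPKM, a log2 fold difference, a −log10 false discovery rate (the authors' score) and an apex position. The submitters' processing notes name BWA 0.7.12-r1039, SAMtools, bedtools, DiffBind and edgeR without roles; the peak caller is not given in the sources used here. The SMARCB1 lists are labelled as hg19 with GFP as the negative control; the BRD9 lists name neither a build nor a control, and their chromosome ends fit hg19. Library sizes were recovered from the deposited counts and RPKM.

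The members and lists were chosen with earlier results of these data known. A region's density in a list is its peak reads per kilobase of peak and M library reads; density over control used counts raised by 1. Medians over regions were taken per list, and lists, not regions, were the replicates in exact tests. The regions named are, per class, the 5 highest by mean rank of score and 1 at the median of density, the 5 widest of both and the 5 densest of SMARCB1 only. Alternatives were the higher-scoring part of each list, looser calls, lists cut to one length, a 50% overlap, merging within 500 bp, leaving out each list, a width band, density over control and a replicate block. The alternatives without chromosome 19 or without the surroundings of peak-free stretches were chosen after seeing the data. Code tested on simulated lists recovered 6000 of 6000 planted regions. Python 3.11.15, numpy 2.4.6, pandas 2.3.3, scipy 1.17.1 and matplotlib 3.10.9 were used. Gene annotation and sequence of hg19 were not used here, so no gene is named and no sequence is shown. Not used were 3 BRD9 lists of SMARCB1-induced cells. For 2 samples, labelled SMARCB1_GFP and IgG_SB1, there was no list here. Reads of a GFP control do enter the SMARCB1 control densities. Whether they came from the SMARCB1_GFP sample was not tested.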

Additional observations from a re-analysis of the deposited data

Results flagged for a closer look

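The BRD9 lists also held peaks on unplaced and patch sequences, which no comparison above used: 1624, 1756 and 1524 peaks in BRD9_GFP replicates 1, 2 and 3. The SMARCB1 lists held 0 there, so whether these sequences took part in the calling of the SMARCB1 lists was not tested. Their median density was 3.48, 3.41 and 3.55 RPKM in the 3 BRD9 lists, with a control of 0.466, 0.615 and 0.532 RPKM.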

How the results depend on the processing

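Of 210 values under other settings, 7 changed sign and 15 of those without a test moved by more than their tolerance (1.5 times for a count, 1 SD over lists for a share). The other 188 include tested differences that kept only their sign: SMARCB1 density went from 0.45 to 0.029 over control, with 1 list at 0, and BRD9 density from 0.25 to 0.13 without BRD9_GFP replicate 2. The cause of each change was not tested, apart from fewer peaks or lists by construction. With the higher-scoring part of each list, the classes held 2384 (BRD9 only), 43322 (SMARCB1 only) and 2421 (both) regions. With equal numbers of top peaks, SMARCB1 only held 18436 and both held 2546, and 17.7% of SMARCB1 regions held BRD9. With at least 2 of 3 BRD9 and 1 of 2 SMARCB1 lists, the classes held 10835, 162014 and 7809 and the share was 5.27%. Over the lists left out in turn, BRD9-only regions numbered 4064 to 8735, SMARCB1-only regions 75097 to 144772, and the share was 5.76% to 10.2%. BRD9 density over control differed by -1.17 between both and BRD9 only. BRD9 peak width, whose lists disagree, gave 0.099 with equal numbers, 0.032 with merging within 500 bp, 0.12 with the looser call, 0.068 without the surroundings of peak-free stretches, and -0.053 to 0.21 over the lists left out.

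With a replicate block over lists 1 and 2, peak number gave 1.95 and covered length 2.70 on the log2 scale. The two-sided exact sign-flip permutation test gave p = 0.5 for each, the smallest possible. No call could change, since the exact permutation test without the block allows no p below 0.1. Deviations of same-numbered lists over the 3925 regions of both correlated at 0.114 and 0.153, over 2 pairs only. BRD9_GFP replicate 3 with SMARCB1_SB1 replicate 1, a pair of unlike number, gave 0.094. With 2 SMARCB1 lists, the values of a BRD9 list are equal and opposite by construction. They therefore cannot settle whether lists were paired, and the labels tie the numbers to no shared origin.

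Promoter shares and sequence features were planned and not run, since hg19 annotation and sequence were not used here. A BRD9 peak rests on 17 or 18 reads at the median, and the lists give no BRD9 reads outside peaks, so low BRD9 and no BRD9 at a SMARCB1 region without a peak cannot be told apart.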
